A study of Mus musculus with 12 samples.

Results

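The semaphorin, ephrin, netrin and slit ligands and their receptors were examined in bulk RNA-seq of 12 libraries, made from cultured primary smooth muscle cells of the mouse aorta. Members were the rows of the deposited table whose gene name begins as a member of these families does, 66 of 29462 rows. Of these, 63 are guidance genes, 34 of ligands and 29 of receptors. The other 3 match only by spelling, namely Unc50, which is not an Unc5 receptor, and the antisense RNAs Plxna4os1 and Plxna4os2. The KO libraries (6) came from global CSE-knockout mice and the WT libraries (6) from C57BL/6J mice, and every culture of both genotypes had been given angiotensin II, a vasoconstrictor peptide, at 1 uM for 24 h. CSE is cystathionine gamma-lyase, an enzyme that makes hydrogen sulfide and is encoded by Cth. The labels give neither the age nor the number of mice, nor whether the libraries of a genotype were separate cultures, so the spread that p-values measure, that of these libraries, may be technical. No untreated cells were analysed here.

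Guidance molecules were named for steering growing axons, and the same ligands and receptors direct the movement of vascular cells. Semaphorins signal through plexins, and the secreted Sema3 class usually needs a neuropilin as co-receptor. Ephrins are bound to the cell surface and meet Eph receptor tyrosine kinases on neighbouring cells, with signals passing into both cells. Netrins act through Unc5 receptors and through Dcc and Neo1, and slits through Robo receptors. In arteries ephrin-B2 marks the arterial side of the circulation and is needed by the smooth muscle cells of the vessel wall.

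Several facts of the libraries bear on all that follows. Cth was at 0 to 0.02 FPKM in KO and 0 to 0.08 FPKM in WT libraries, so its level does not check the genotype labels. FPKM counts fragments per kilobase of gene model, scaled to the mapped fragments of the library, and it summed to between 255538 and 281432 per library. Of 10 smooth muscle markers only Acta2 and Smtn reached 1 FPKM in the mean of either genotype, while Myh11 was at 0 to 0.03 FPKM in KO and 0.01 to 0.02 FPKM in WT. Acta2 averaged 101.8 FPKM in KO and 120.1 FPKM in WT, and Smtn 11.7 FPKM in KO and 13.0 FPKM in WT. Neither passed in the limma fit described below (adjusted p = 0.14 and 0.29). The 11 endothelial markers measured summed to 1.22 to 1.78 FPKM in KO and 0.54 to 0.79 FPKM in WT, and none was high enough to be tested. Kdr averaged 0.62 FPKM in KO and 0.003 FPKM in WT, and Erg 0.15 FPKM in KO and 0 in WT. Others ran the other way, such as Pecam1 at 0.09 FPKM in KO and 0.14 FPKM in WT. Cdh5 was at most 0.01 FPKM in any library. Epithelial and mesothelial markers (14 measured) summed to 48.3 to 73.1 FPKM in KO and 149.4 to 158.2 FPKM in WT. Of the 6 tested, Cdh1 (mean 0.86 FPKM in KO and 65.0 FPKM in WT), Krt19 and Msln were lower. Upk3b (2.10 FPKM in KO and 0.45 FPKM in WT), Upk1b and Wt1 were higher. Of these, Upk3b and Wt1 reached 1 FPKM only in KO libraries and so had to be higher. The 10 fibroblast markers summed to 648.6 to 1429 FPKM in KO and 926.6 to 983.6 FPKM in WT. Of the 7 tested, Pdgfra, Col3a1, Dpt and Gsn were higher in KO, Col1a2 was lower, and Col1a1 and Dcn did not pass. Means were 10.4 FPKM in KO and 1.08 FPKM in WT for Pdgfra, and 172.6 FPKM in KO and 298.9 FPKM in WT for Col1a2. Col3a1 (106.5 FPKM in KO and 0.59 FPKM in WT) and Dpt reached 1 FPKM only in KO libraries and so had to be higher. Leukocyte markers (8 measured) summed to 8.53 to 14.9 FPKM in KO and 2.2 to 3.17 FPKM in WT. Cd68 (mean 8.19 FPKM in KO and 1.62 FPKM in WT) and Csf1r, the 2 tested, were higher. Csf1r (3.05 FPKM in KO and 0.71 FPKM in WT) reached 1 FPKM only in KO libraries and so had to be higher. Ptprc was at most 0.03 FPKM in KO and 0.04 FPKM in WT. The sum of 10 neural and Schwann markers was 42.5 to 60.7 FPKM in KO and 32.3 to 38.7 FPKM in WT. Of the 3 tested, Tubb3 was higher in KO (mean 44.8 FPKM in KO and 23.7 FPKM in WT). Mbp (0.38 FPKM in KO and 4.88 FPKM in WT) and Syn1 (3.01 FPKM in KO and 5.61 FPKM in WT) were lower. Mbp reached 1 FPKM only in WT libraries and so had to be lower. Sox10 was at 0 in all KO libraries and at most 0.01 FPKM in WT. The part of these markers in the results below was not tested, and in bulk RNA fewer cells of a type cannot be told apart from less RNA per cell. KO replicates 5 and 6 stood apart from KO replicates 1 to 4 in many guidance genes, and Mki67, a marker of dividing cells, was at 31.5 and 119.95 FPKM in them, against 14.2 to 18 FPKM in KO replicates 1 to 4 and 20.1 to 27.5 FPKM in WT libraries. The 10 cell cycle markers summed to 189.6 to 468.8 FPKM in KO and 204.7 to 293.2 FPKM in WT. Calls, and exact permutation p-values of low members, that cross 0.05 when only the first 4 KO libraries are used are given both ways. The labels do not set KO replicates 5 and 6 apart. The split was seen in these values, so p-values without these libraries are a description.

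Large differences were found in 4 genes whose promoters are shown here for reference: Slit3 and Robo1, a slit ligand and the receptor it binds, which were near 0 in WT, and the receptors Plxnd1 and Epha4, which were lower in KO. They are printed so that the starts of a pair of genes higher in KO and a pair lower in KO can be read side by side. The sequences are those of RefSeq, GRCm38.p6, from 250 bases before to 50 bases after the transcription start, 5′ to 3′ on the gene's strand, and 55 of the 63 guidance genes matched that table. They cover chr11:35121206-35121505 (plus strand), chr16:72662899-72663198 (plus strand), chr6:115994956-115995255 (minus strand) and chr1:77515039-77515338 (minus strand). The Robo1 window lies inside the span that GENCODE gives this gene, at a later start. Most of the Slit3 window also lies inside the GENCODE span of Slit3, which begins at 35121224, so its start too is a later one. Capitals mark matches, on either strand, to the GC box GGGCGG, the CCAAT box CCAAT, the TATA box TATAAA, the AP-1 site TGANTCA and the E-box CACGTG.
Slit3: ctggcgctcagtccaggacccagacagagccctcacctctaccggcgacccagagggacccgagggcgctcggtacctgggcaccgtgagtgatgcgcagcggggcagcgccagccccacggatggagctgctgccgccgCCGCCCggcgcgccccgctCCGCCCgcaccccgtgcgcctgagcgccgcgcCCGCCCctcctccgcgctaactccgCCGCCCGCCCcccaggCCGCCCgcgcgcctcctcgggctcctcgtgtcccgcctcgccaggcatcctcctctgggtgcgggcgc
Robo1: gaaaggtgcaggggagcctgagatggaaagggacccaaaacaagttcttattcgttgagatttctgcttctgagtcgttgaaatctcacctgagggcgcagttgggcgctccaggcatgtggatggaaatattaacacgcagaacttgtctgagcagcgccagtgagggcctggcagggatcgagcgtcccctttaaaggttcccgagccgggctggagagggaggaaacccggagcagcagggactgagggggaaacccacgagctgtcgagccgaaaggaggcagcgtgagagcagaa
Plxnd1: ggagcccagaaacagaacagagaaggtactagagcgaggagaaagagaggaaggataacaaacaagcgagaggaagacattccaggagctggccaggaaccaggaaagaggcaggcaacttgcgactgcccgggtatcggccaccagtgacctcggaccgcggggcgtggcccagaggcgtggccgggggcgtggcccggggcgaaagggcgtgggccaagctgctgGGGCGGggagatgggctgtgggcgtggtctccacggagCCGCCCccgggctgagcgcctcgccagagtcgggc
Epha4: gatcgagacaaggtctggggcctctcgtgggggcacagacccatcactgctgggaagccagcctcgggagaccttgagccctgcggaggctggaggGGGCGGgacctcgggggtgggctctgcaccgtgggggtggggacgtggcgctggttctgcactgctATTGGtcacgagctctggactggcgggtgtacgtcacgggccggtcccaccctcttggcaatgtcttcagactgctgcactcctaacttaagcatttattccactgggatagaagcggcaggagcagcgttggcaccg

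The Slit3 window held 6 matches to the GC box, of which a pair overlap, that of Plxnd1 held 2 and that of Epha4 1, where 35.6% of 32817 RefSeq promoters hold at least 1. Epha4 also had 1 CCAAT match, a motif found in 37.4% of promoters. None of the 4 windows held a TATA box, AP-1 site or E-box in these letters, which 13.6%, 7.81% and 7.15% of promoters hold. CG dinucleotides numbered 41 in Slit3, 15 in Robo1, 23 in Plxnd1 and 17 in Epha4, against a median of 7 over all promoters. Of all promoters, 96.5% hold fewer than Slit3, 65.4% fewer than Robo1, 78.5% fewer than Plxnd1 and 68.6% fewer than Epha4. These counts describe the windows and say nothing of the factors that bind such motifs.

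Differences between genotypes were tested on the log2(FPKM + 1) scale with limma, two-sided, over the 11831 genes that reached 1 FPKM in 6 or more libraries. Among guidance genes 31 passed this filter, and 24 of the 31 (77.4%) differed at an adjusted p of 0.05, where 63.5% of all tested genes did. Of the 24, 10 rose in KO (32.6% of all tested genes rose) and 14 fell (30.9% fell). Efna2, Sema3e, Sema6b, Nrp2 and Slit3 passed the filter only through the KO libraries and so had to be higher. Their p-values are given as a description. Without these 5, 19 of 26 differed, 5 higher and 14 lower. Of the 11264 genes that reached 1 FPKM in some library of each genotype, 61.7% differed, 30.8% higher and 30.9% lower. The median absolute difference was 0.71 over the 31 guidance genes and 0.32 over all tested genes. Without the genes that passed only through KO it was 0.64 over the 26 guidance genes, against 0.30 over the 11264 genes. Of 17 ligands tested 7 rose and 5 fell, and of 14 receptors tested 3 rose and 9 fell. Without the genes that passed only through KO, 3 of 13 ligands rose and 5 fell, and 2 of 13 receptors rose and 9 fell. The genotypes shared no part of their ranges in 22 of the 31, where 46.4% of all tested genes showed this, and in 17 of the 26, where 43.7% of the 11264 genes did. With KO replicates 1 to 4 only, 11 guidance genes rose and 16 fell, where 77.1% of all tested genes differed, 39.9% higher and 37.1% lower. The remaining 32 guidance genes were too low for the fit and were compared by exact permutation of the 12 libraries (924 assignments, two-sided, unadjusted), whose smallest p is 0.00216. In 19 of these 32 the exact permutation p was under 0.05, where 20.4% of the 17229 low genes with any value above 0 reached this. KO was higher in 15 of the 19 (12.7% of all low genes) and lower in 4 (7.7%). In 13 of the 32 the genotypes did not overlap, where 9.66% of low genes did not, and 14 of the 32 averaged under 0.1 FPKM in both genotypes. The 32 and the 17229 low genes were not matched for level. A gene above 0 in a single library cannot reach a p under 0.05, so these shares are a description and no measure of enrichment.

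**Figure D1:**
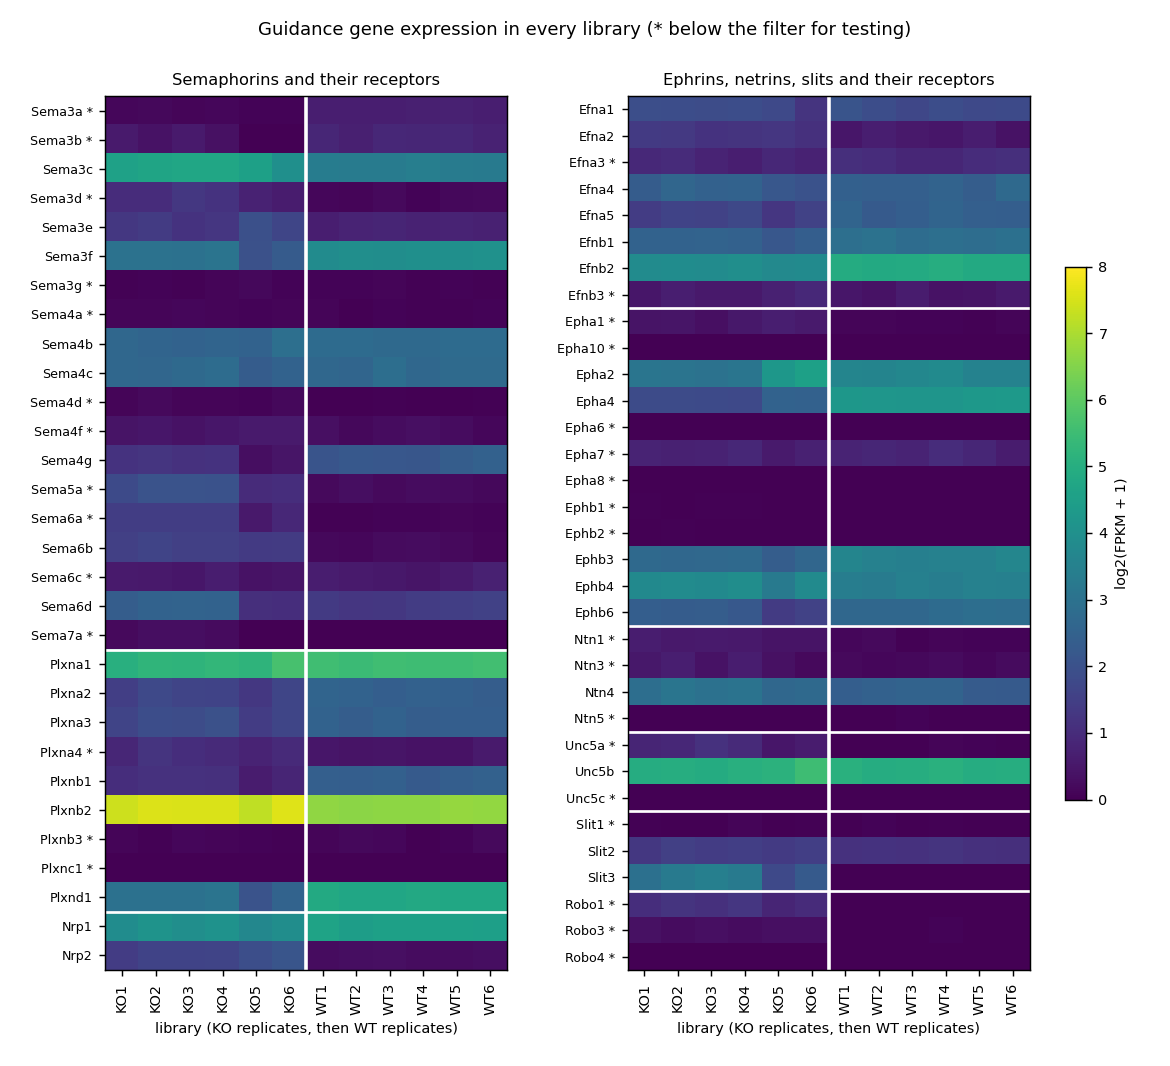
Level of the 63 guidance genes, as log2(FPKM + 1) by colour, in each of the 12 libraries, with KO replicates left of WT replicates, white lines between families and an asterisk on the 32 genes too low for the fit. Plxnb2 is the brightest row in all 12 libraries, and KO replicates 5 and 6 differ from KO replicates 1 to 4 in rows such as Epha2 and Sema6d.

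**Figure D2:**
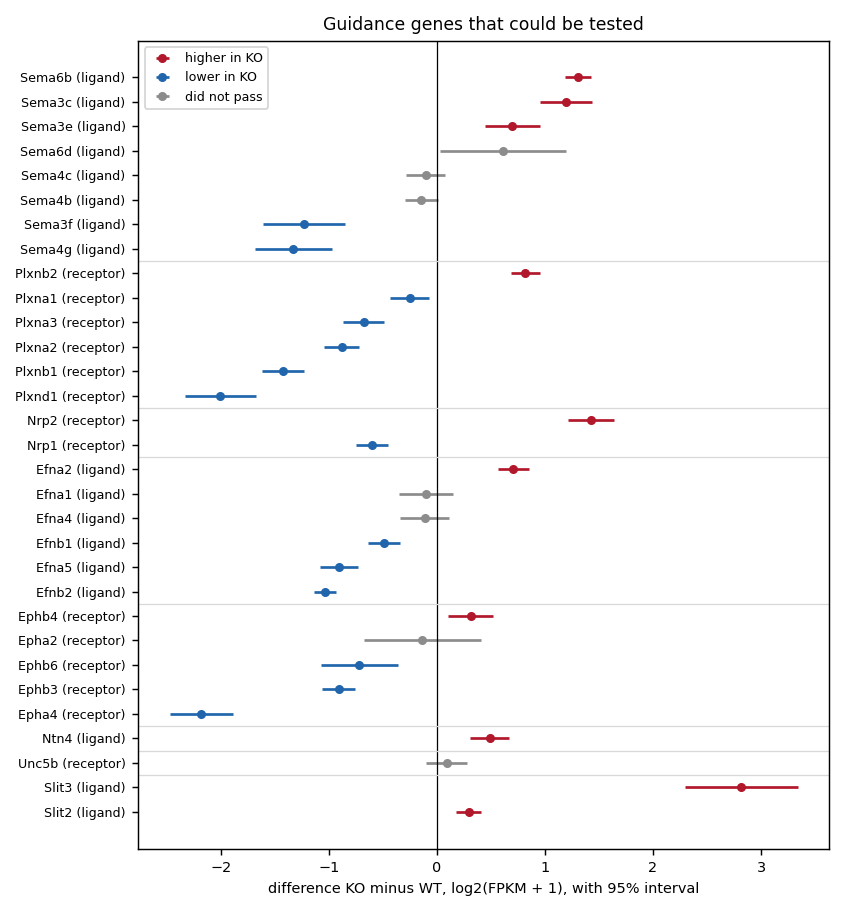
Difference KO minus WT on the log2(FPKM + 1) scale for the 31 guidance genes tested, with 95% intervals from limma, by family. Red points (10) rose in KO, blue points (14) fell and grey points (7) did not pass, and the differences run from -2.18 in Epha4 to 2.82 in Slit3.

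Among semaphorins, the ligands, Sema3c was the most abundant in KO and Sema3f in WT. Sema3c, a secreted ligand that binds neuropilins and is required for dividing the cardiac outflow tract, was at 14.7, 23.6 and 25.8 FPKM (lowest, median and highest) in KO libraries, against 8.89, 9.12 and 9.66 FPKM in WT libraries. No KO library overlapped WT, and the lowest value was that of KO replicate 6. Sema3c rose 2.47-fold in mean FPKM (log2 difference 1.19 ± 0.11 SE, adjusted p = 6.8e-07). Sema3f, a secreted ligand known to act through neuropilin-2, was at 2.95, 7.03 and 7.38 FPKM in KO and 13.4, 14.7 and 15.6 FPKM in WT. All KO values lay below WT, and KO replicates 5 and 6 were the lowest at 2.95 and 3.89 FPKM. The fall was 2.47-fold (log2 difference -1.23 ± 0.17 SE, adjusted p = 3.7e-05). Of the family's summed FPKM, Sema3c made up 42.7% ± 4.85 in KO and 20.9% ± 0.98 in WT (SD, n = 6 each), and Sema3f 10.9% ± 2.16 in KO and 33.2% ± 0.89 in WT.

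The other tested semaphorins showed no common direction. Sema4g, a membrane-bound member, was at 0.22, 1.21 and 1.37 FPKM in KO, against 3.25, 3.55 and 4.62 FPKM in WT, and fell 3.98-fold (adjusted p = 1.1e-05). Here too KO replicates 5 and 6 held the lowest values, 0.22 and 0.38 FPKM. Sema3e, which binds plexin-D1 without a neuropilin, averaged 1.8 ± 0.63 FPKM in KO and 0.69 ± 0.065 FPKM in WT (adjusted p = 0.00017). The transmembrane Sema6b averaged 1.82 ± 0.19 FPKM in KO and 0.14 ± 0.038 FPKM in WT (adjusted p = 2.8e-10). Both passed the filter only through KO and so had to be higher, and their p-values are a description. Sema4b and Sema4c did not pass, with log2 differences of -0.14 (95% interval -0.29 to 0.01) and -0.10 (-0.29 to 0.08). Sema4b was called lower without KO replicate 6 (log2 difference -0.20, adjusted p = 0.00072) and when both KO replicates 5 and 6 were left out (-0.19, adjusted p = 0.00061).

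Sema6d parted the KO libraries. This transmembrane ligand, known as a partner of plexin-A1, was at 4.1 to 4.82 FPKM in KO replicates 1 to 4 and at 1.09 and 1.07 FPKM in KO replicates 5 and 6, against 1.42, 1.62 and 1.93 FPKM (lowest, median and highest) in WT. The first 4 KO libraries were thus above every WT library and the other two below. With all libraries Sema6d did not pass (log2 difference 0.61, 95% interval 0.03 to 1.19, adjusted p = 0.063). It passed without KO replicate 5 (0.80, adjusted p = 0.0097), without KO replicate 6 (0.80, adjusted p = 0.009) and without both (1.09, adjusted p = 7.8e-09). Leaving out libraries that lie opposite to the other KO libraries favours such a call, so these p-values are a description.

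Of the 11 semaphorins too low for the fit, Sema5a, Sema6a and Sema3d were higher in every KO library than in any WT library, and Sema3a and Sema3b lower. Sema5a, whose protein carries thrombospondin repeats, was at 0.98, 2.79 and 3.14 FPKM in KO and 0.13, 0.16 and 0.23 FPKM in WT. Sema6a was at 0.46, 1.72 and 1.73 FPKM in KO and 0.03, 0.05 and 0.08 FPKM in WT, and Sema3d at 0.52, 1.02 and 1.46 FPKM in KO and 0.06, 0.115 and 0.15 FPKM in WT. In Sema5a and Sema6a the 2 lowest KO values were those of KO replicates 5 and 6. Sema3a, the classic repellent that acts through neuropilin-1, was at 0.05, 0.095 and 0.12 FPKM in KO and 0.58, 0.595 and 0.66 FPKM in WT. For Sema3b the KO values were 0, 0.285 and 0.49 FPKM and the WT values 0.62, 0.815 and 0.87 FPKM, with KO replicates 5 and 6 at 0.01 and 0 FPKM. Each of these 5 had the smallest exact permutation p, 0.00216. Sema4d and Sema4f also did not overlap, with KO higher, and Sema3g, Sema4a, Sema6c and Sema7a overlapped. Sema7a was at 0.14 to 0.23 FPKM in KO replicates 1 to 4, listed at 0 in KO replicates 5 and 6, and at most 0.02 FPKM in WT. Its exact permutation p was 0.061 with all libraries and 0.0048 without KO replicates 5 and 6.

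The plexins, the receptors of semaphorins, fell in 5 of the 6 tested, where 30.9% of all tested genes fell, and Plxnb2, which made up most of the family's summed FPKM in both genotypes, took a larger share in KO. Plxnb2, a receptor of class 4 semaphorins and of angiogenin, was at 149.8, 185.5 and 194.1 FPKM in KO, against 96.3, 100.2 and 104.9 FPKM in WT. The groups did not overlap, and Plxnb2 rose 1.78-fold (log2 difference 0.82 ± 0.06 SE, adjusted p = 1.2e-07). Its share of summed plexin FPKM was 78.0% ± 1.04 in KO and 54.1% ± 0.70 in WT (SD, n = 6 each). Plxnd1, the receptor of Sema3e, known from vessel patterning, was at 3.09, 6.95 and 7.47 FPKM in KO and 25.4, 26.4 and 27.9 FPKM in WT. It fell 4.38-fold (log2 difference -2.01 ± 0.15 SE, adjusted p = 9.3e-08), with the lowest values in KO replicates 5 and 6 at 3.09 and 4.9 FPKM. Plxnb1, the receptor of Sema4d, was at 0.52, 1.12 and 1.19 FPKM in KO and 3.85, 4.34 and 4.58 FPKM in WT, a 4.36-fold fall (adjusted p = 1.4e-08).

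The 3 tested A-type plexins, which pair with neuropilins, also fell. Plxna2 was at 1.47, 2.09 and 2.4 FPKM in KO and 4.12, 4.53 and 4.96 FPKM in WT (2.25-fold lower, adjusted p = 3e-07). Plxna3 was at 1.67, 2.39 and 2.97 FPKM in KO and 4.08, 4.27 and 4.67 FPKM in WT (1.84-fold lower, adjusted p = 1.4e-05). Neither overlapped between genotypes. Plxna1, the second most abundant plexin, had the smallest difference of these, with a mean of 38.1 ± 6.11 FPKM in KO and 45.2 ± 1.08 FPKM in WT (log2 difference -0.25, adjusted p = 0.019). KO replicate 6, at 49.8 FPKM, was above every WT library, and the call was lost with TPM rescaling (log2 difference -0.24, adjusted p = 0.056) and in the exact rank-sum test (adjusted p = 0.094). Plxna4, too low for the fit, ran the other way, at 0.73, 0.92 and 1.29 FPKM in KO and 0.30, 0.36 and 0.49 FPKM in WT (exact permutation p = 0.00216). Plxnb3 and Plxnc1 were at most 0.14 FPKM in any library, and Plxna4os1 and Plxna4os2 at most 0.02 FPKM.

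The neuropilins moved in opposite directions. Nrp1, a co-receptor of Sema3a and of VEGF, was at 11.9, 14.2 and 16.2 FPKM in KO, against 21.1, 22.2 and 23.7 FPKM in WT, and fell 1.55-fold (log2 difference -0.60 ± 0.07 SE, adjusted p = 4.4e-06). Nrp2, the co-receptor of Sema3f, was at 1.69, 2.08 and 3.27 FPKM in KO and 0.19, 0.23 and 0.26 FPKM in WT, and rose 10.4-fold (log2 difference 1.43 ± 0.10 SE, adjusted p = 3.5e-08). Neither overlapped between genotypes. For Nrp2 this had to be so, because it passed the filter only through KO, and its p-value is a description. The 2 highest Nrp2 values were those of KO replicates 5 and 6. Nrp1 remained the more abundant, with 86% ± 3.91 of summed neuropilin FPKM in KO and 99% ± 0.14 in WT (SD, n = 6 each).

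**Figure D3:**
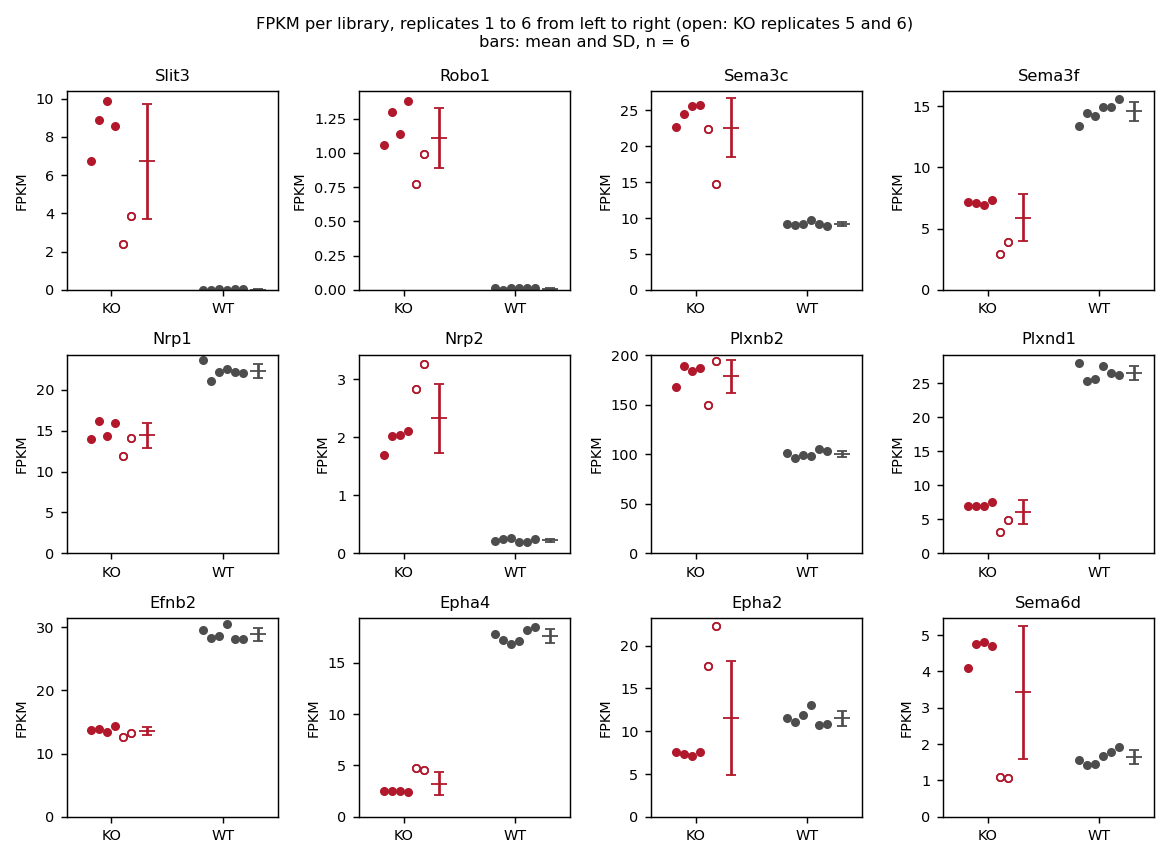
FPKM of 12 guidance genes in each library, with KO left of WT, replicates 1 to 6 from left to right within a genotype, open points for KO replicates 5 and 6, and bars for the mean and SD (n = 6). Slit3 and Robo1 lie near 0 in all WT libraries. Epha4 and Plxnd1 are lower in every KO library than in any WT library, as are Sema3f, Nrp1 and Efnb2. In Epha2 and Sema6d the KO libraries fall on both sides of WT.

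Of the 6 ephrin ligands tested 3 fell, 2 did not pass and 1, Efna2, rose, having passed the filter only through KO, where 30.9% of all tested genes fell. Efnb2, the arterial ephrin-B2 and the most abundant ephrin, was at 12.6, 13.6 and 14.4 FPKM in KO, against 28.0, 28.4 and 30.5 FPKM in WT. The groups were far apart and all 6 KO libraries lay within a narrow range, replicates 5 and 6 included. Efnb2 fell 2.13-fold (log2 difference -1.04 ± 0.05 SE, adjusted p = 4.4e-10). Efna5, anchored to the membrane by a lipid, was at 1.41, 1.98 and 2.31 FPKM in KO and 3.76, 4.33 and 5.00 FPKM in WT (2.33-fold lower, adjusted p = 5.3e-07). Efnb1, on the X chromosome, averaged 4.41 ± 0.51 FPKM in KO and 6.58 ± 0.35 FPKM in WT (log2 difference -0.49, adjusted p = 3.2e-05). Efna2 rose, with a mean of 1.37 ± 0.16 FPKM in KO and 0.45 ± 0.11 FPKM in WT (adjusted p = 6.3e-07). Efna1 and Efna4 did not pass, with log2 differences of -0.10 (95% interval -0.35 to 0.15) and -0.11 (-0.34 to 0.11). Of the 2 ephrins too low for the fit, Efna3 averaged 0.79 FPKM in KO and 0.98 FPKM in WT (exact permutation p = 0.045) and Efnb3 0.58 FPKM in KO and 0.40 FPKM in WT (exact permutation p = 0.041). Without KO replicates 5 and 6 the exact permutation p was 0.095 for Efna3 and 0.19 for Efnb3. Efna3 shares exonic positions with Gm15998 on the opposite strand, which averaged 0.89 FPKM. The summed FPKM of the 8 ephrins was 29.2 ± 2.26 in KO and 48.9 ± 1.66 in WT (SD, n = 6 each).

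Efnb1 and Plxna3 are on the X chromosome, and the libraries differ in the RNA of the sex chromosomes. Xist, the RNA of the inactive X, was at 2.31 to 3.53 FPKM in KO replicates 1 to 4 and at 0.31 and 0.63 FPKM in KO replicates 5 and 6, against 0.01 to 0.04 FPKM in WT libraries. The Y-linked Ddx3y was at 3.49 to 6.78 FPKM in KO and 9.87 to 11.8 FPKM in WT. These differences run with genotype in all 12 libraries, so sex and genotype cannot be told apart for any gene here, and their part in the results was not tested.

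The Eph receptors, which bind ephrins, fell in 3 of the 5 tested, where 30.9% of all tested genes fell, and the fall of Epha4 was the largest among the 31 guidance genes tested. Epha4, which accepts ephrins of both classes, was at 2.42, 2.54 and 4.72 FPKM in KO, against 16.8, 17.6 and 18.5 FPKM in WT. All KO libraries were far below WT, and the 2 highest were KO replicates 5 and 6 at 4.72 and 4.59 FPKM. The fall was 5.48-fold (log2 difference -2.18 ± 0.14 SE, adjusted p = 1.2e-08). Ephb3 was at 4.13, 5.4 and 5.69 FPKM in KO and 9.85, 10.5 and 11.7 FPKM in WT (2.04-fold lower, adjusted p = 1.2e-07). Ephb6, whose kinase domain is inactive, was at 1.65, 3.84 and 4.21 FPKM in KO and 5.35, 5.66 and 6.41 FPKM in WT (1.77-fold lower, adjusted p = 0.002), with its lowest values, 1.65 and 1.96 FPKM, in KO replicates 5 and 6. Ephb4, the venous receptor of ephrin-B2, averaged 12.5 ± 1.95 FPKM in KO and 9.79 ± 0.57 FPKM in WT (log2 difference 0.31, adjusted p = 0.012). KO replicate 5, at 8.64 FPKM, was below every WT library, and the call was lost in the exact rank-sum test (adjusted p = 0.094).

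Epha2, the Eph gene with the highest mean over all 12 libraries, though Ephb4 was higher in KO and Epha4 in WT, did not pass with all libraries, and its KO libraries fell on both sides of WT. It was at 7.09 to 7.62 FPKM in KO replicates 1 to 4 and at 17.6 and 22.3 FPKM in KO replicates 5 and 6, against 10.7, 11.4 and 13.1 FPKM (lowest, median and highest) in WT. The log2 difference was -0.14 (95% interval -0.68 to 0.41, adjusted p = 0.66) with all libraries and -0.57 without KO replicates 5 and 6 (adjusted p = 4.8e-07). The second p-value is a description, since those libraries were set apart by their values. Epha2 made up 30.0% ± 12.6 of summed Eph FPKM in KO and 20.5% ± 1.7 in WT, Epha4 8.57% ± 2.09 in KO and 31.3% ± 0.80 in WT, and Ephb4 34.5% ± 7.47 in KO and 17.4% ± 0.84 in WT (SD, n = 6 each). Of 7 Eph genes too low for the fit, Epha1 averaged 0.42 ± 0.12 FPKM in KO and 0.06 ± 0.015 FPKM in WT (exact permutation p = 0.00216). Its exons overlap those of Zyx on the opposite strand, which averaged 50.7 FPKM over the 12 libraries, and the sources used here do not say whether counting used strand. Epha7 averaged 0.68 FPKM in KO and 0.77 FPKM in WT, and Epha6, Epha8, Epha10, Ephb1 and Ephb2 were at most 0.03 FPKM in any library. For Ephb1 the exact permutation p was 0.074 with all libraries and 0.014 without KO replicates 5 and 6.

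**Figure D4:**
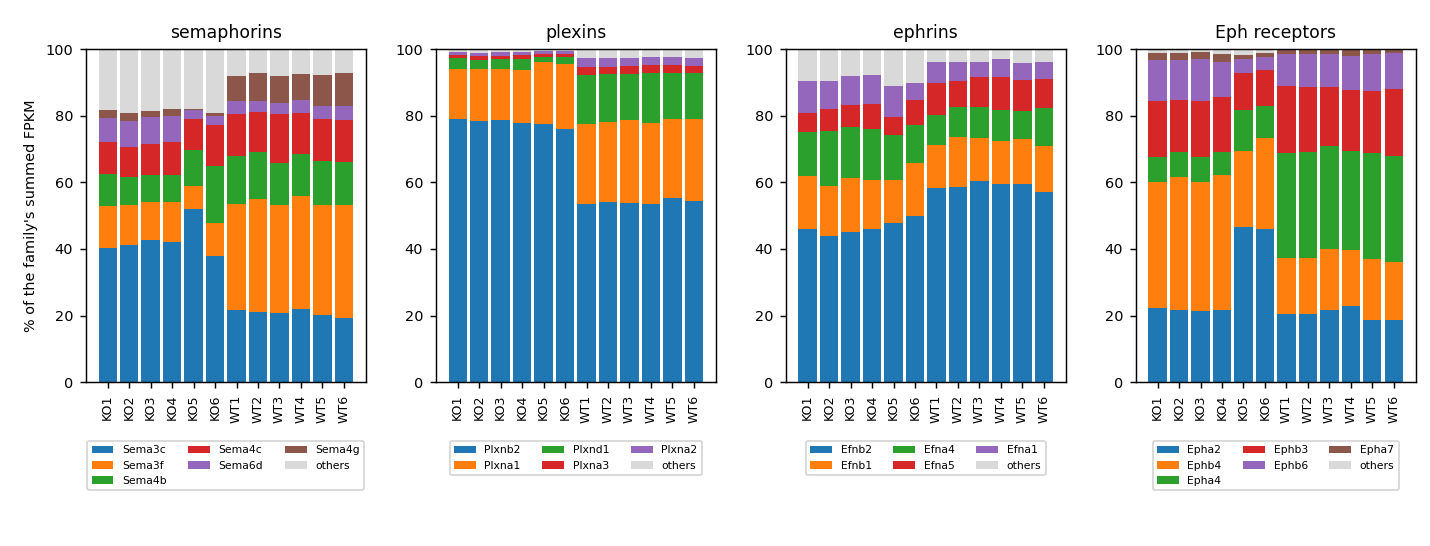
Share of each family's summed FPKM (percent, each bar 100) taken by its most abundant members in every library, with KO left of WT, for semaphorins, plexins, ephrins and Eph receptors. Sema3c and Plxnb2 take larger shares in all KO libraries than in any WT library, Epha4 a smaller share, and Epha2 takes more in KO replicates 5 and 6 than in the other 4 KO libraries.

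Slit3 had the largest difference among the 31 guidance genes tested, and with Robo1 it formed a ligand and receptor pair that was near 0 in WT. Slit3, a secreted ligand, lies on chromosome 11 from 35121224 to 35708507 on the plus strand of GRCm38 (GENCODE M21). It was at 2.4, 7.68 and 9.88 FPKM in KO, against 0, 0.015 and 0.02 FPKM in WT, and rose (log2 difference 2.82 ± 0.24 SE, adjusted p = 3.3e-07). Slit3 passed the filter only through KO, so every KO library had to be above every WT library and its p-value is a description. The 2 lowest KO values, 2.4 and 3.86 FPKM, were those of KO replicates 5 and 6. Slit2, whose product binds the same receptors, moved little, with a mean of 1.7 ± 0.16 FPKM in KO and 1.2 ± 0.066 FPKM in WT (log2 difference 0.29, adjusted p = 0.00026). Slit1 was at most 0.07 FPKM in any library. In KO Slit3 made up 76.7% ± 10.2 of the summed slit FPKM, and in WT Slit2 made up 96.8% ± 1.27 (SD, n = 6 each).

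None of the 3 Robo receptors measured reached the level needed for the fit. Robo1, on chromosome 16 from 72308306 to 73046095 on the plus strand, was at 0.77, 1.1 and 1.38 FPKM in KO, against 0, 0.01 and 0.01 FPKM in WT (exact permutation p = 0.00216). Robo3, known from axons that cross the midline, averaged 0.24 ± 0.028 FPKM in KO and 0.018 ± 0.017 FPKM in WT (exact permutation p = 0.00216). KO was above WT in all libraries for both. Robo4, an endothelial receptor, was at most 0.01 FPKM in any library, as was the endothelial cadherin Cdh5.

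Of the netrins and Unc5 receptors, Ntn4 and Unc5b were abundant enough to be tested, and Ntn4 rose. Ntn4, a netrin of basement membranes that binds laminin, was at 5.41, 6.67 and 7.59 FPKM in KO and 3.77, 4.42 and 4.81 FPKM in WT. The groups did not overlap, and Ntn4 rose 1.5-fold (log2 difference 0.49 ± 0.08 SE, adjusted p = 0.0002). Unc5b, the netrin receptor of blood vessels, was at 29.4, 31.5 and 44.4 FPKM in KO and 30, 30.5 and 33.1 FPKM in WT and did not pass (log2 difference 0.09, 95% interval -0.10 to 0.28, adjusted p = 0.38). Unc5a, too low for the fit, was at 0.40, 0.83 and 1.19 FPKM in KO and 0, 0.03 and 0.07 FPKM in WT (exact permutation p = 0.00216). Ntn1, the founding netrin, averaged 0.44 ± 0.086 FPKM in KO and 0.078 ± 0.04 FPKM in WT (exact permutation p = 0.00216). Ntn3 averaged 0.39 FPKM in KO and 0.14 FPKM in WT (exact permutation p = 0.0087) and overlapped between genotypes. Its exons overlap those of Tbc1d24 on the same strand, which averaged 3.72 FPKM. Ntn5, listed at 0 in all KO libraries, was at most 0.05 FPKM in WT (exact permutation p = 0.015), and Unc5c at most 0.01 FPKM in any library. Unc50, matched only by its spelling, averaged 20.7 ± 3.97 FPKM in KO and 21.4 ± 1.09 FPKM in WT and did not pass (log2 difference -0.07, adjusted p = 0.64), while without KO replicates 5 and 6 it was called higher (0.10, adjusted p = 0.035).

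Other genes of these pathways were read from 4 lists of signalling partners, which hold 166 genes, 154 of them in the table. Of 113 tested, 45 rose, 42 fell and 26 did not pass, where 32.6% of all tested genes rose and 30.9% fell. The median log2 difference was 0.04 over the 113 and 0.01 over all tested genes. Fyn, Limk1, Grb10, Ablim3, Cap2, Prrg4, Wnt5a, Ror2 and Plxdc2 passed the filter only through KO and so had to be higher, and their p-values are given as a description. Without these 9, 36 of 104 rose and 42 fell. Among 34 semaphorin and plexin partners 15 rose and 12 fell, or 13 and 12 of 32 without those genes. Rnd1, a small GTPase that binds plexins from inside the cell, averaged 45.4 ± 1.42 FPKM in KO and 7.48 ± 0.56 FPKM in WT (adjusted p = 3.8e-13), whereas its relative Rnd3 averaged 14.6 ± 2.4 FPKM in KO and 58.6 ± 1.94 FPKM in WT (adjusted p = 2e-09). Fyn, a kinase of the Src family, averaged 3.02 ± 0.42 FPKM in KO and 0.16 ± 0.057 FPKM in WT (adjusted p = 1.6e-10). Of 32 ephrin and Eph partners 8 rose and 13 fell, or 7 and 13 of 31 without Grb10. Grb10, an adaptor of receptor tyrosine kinases, was at 6.66 to 9.39 FPKM in KO and 0 to 0.02 FPKM in WT (adjusted p = 1.2e-12). Ptk2, the focal adhesion kinase, rose 1.64-fold, to 11.02 ± 0.89 FPKM in KO against 6.71 ± 0.15 FPKM in WT (adjusted p = 2.9e-07), and Anks1, an adaptor of Eph receptors, fell 1.89-fold, to 1.77 ± 0.21 FPKM in KO against 3.34 ± 0.26 FPKM in WT (adjusted p = 8.1e-07).

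Of 33 netrin and slit partners 16 rose and 10 fell, or 13 and 10 of 30 without those that passed only through KO. Gpc1, a heparan sulfate proteoglycan that binds slits, averaged 25.5 ± 3.69 FPKM in KO and 5.48 ± 0.30 FPKM in WT (adjusted p = 1.6e-10). Dapk1, the death-associated kinase linked to Unc5b, averaged 9.85 ± 1.85 FPKM in KO and 1.43 ± 0.25 FPKM in WT (adjusted p = 3.2e-09), and Myo10, a myosin of filopodia, 37.9 ± 6.74 FPKM in KO and 10.1 ± 0.65 FPKM in WT (adjusted p = 2.8e-09). Cap2, which binds actin, was at 1.84 to 2.84 FPKM in KO and 0 to 0.01 FPKM in WT (adjusted p = 1.5e-10). Of 14 other guidance ligands and receptors 6 rose and 7 fell, or 3 and 7 of 11 on the same basis. Plxdc2, a plexin-domain protein, was at 5.7 to 8.37 FPKM in KO and 0 to 0.02 FPKM in WT (adjusted p = 1.5e-12), and Ror2, a receptor of Wnt5a, at 4.23 to 5.55 FPKM in KO and listed at 0 in all WT libraries (adjusted p = 3.8e-13). Dlk1, a Delta-like membrane protein, averaged 1.71 ± 0.11 FPKM in KO and 24.2 ± 1.91 FPKM in WT (adjusted p = 7.9e-14).

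In the authors' deposited table, whose ratio runs WT over KO, 31 of the 63 guidance genes bear its significance mark, as 15.0% of all 29462 rows do, with KO higher in 20 and WT higher in 11. Of the 31, 15 were called here in the same direction and 15 were too low for the fit. The remaining gene was Sema6d, with a q-value of 0.02 in the authors' deposited table. The authors' deposited table did not mark Efnb1, Ephb4, Ephb6, Ntn4, Nrp1, Plxna1, Plxna3, Plxnb2 and Slit2, the 9 other genes called here. Its q-values for these 9 were 0 to 0.05 as printed. Their log2 ratios were 0.25 (Plxna1) to 0.88 (Plxna3) in absolute size, and that of Plxnb2, WT over KO, was -0.83. Marked guidance genes had an absolute ratio of 1.03 (Ephb3) or more, so the mark may need a size of change that the calls here do not.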

How the data were processed

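RNA was measured in 6 KO and 6 WT libraries, grouped by the genotype in their labels. Per the labels' protocols, polyadenylated RNA was fragmented and strand marked with dUTP before paired-end sequencing. Without giving roles, the submitters' processing notes list the build mm9 and the tools StringTie 1.3.4d, HISAT2 2.0.4, edgeR, DESeq2 and cutadapt 1.9. The deposited values are FPKM made by the authors, to 2 decimals, and depth in reads is unknown. The deposited table also holds the authors' ratio of mean FPKM (WT over KO) with the log2 of that ratio, and a q-value beside each p-value, of a test the sources do not name.

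The 11831 genes that reached 1 FPKM in 6 or more libraries were compared on log2(FPKM + 1), which understates changes of low genes, with limma 3.58.1 in R 4.3.3, a variance trend and no covariate, two-sided, with Benjamini-Hochberg adjustment over all of them. Folds are ratios of mean FPKM, and a difference is KO minus WT. Lower genes were compared by exact permutation. The test scripts were tested on simulated data. All 66 member IDs matched GENCODE M21 (GRCm38), whose positions are given. This is not the build in the notes, so no position comes from the files.

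Lowest, median and highest values are given for called members averaging 2 FPKM or more in either genotype and differing by 0.5 or more (log2), for the most abundant member of each family, and for low members averaging 0.5 FPKM or more whose genotypes do not overlap. Of each partner list, the 3 called genes with the smallest p and that with the largest difference are named. Sema6d, Sema4b, the remaining members and the marker genes were named after their values were seen, and the members and lists were chosen with earlier results of these data known. Alternatives were another pseudocount (0.1), filter, scaling, variance model, weights, a rank-sum test, a replicate block, each library left out, and KO replicates 1 to 4 only.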

Additional observations from a re-analysis of the deposited data

Results flagged for a closer look

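In 39 guidance genes, each genotype's 6 libraries were searched for a library whose gap to its nearest neighbour is a large part of the group's range. Such a library was held by 9 of 78 groups, where the rule flags about 1 in 20 by chance. The genes share the same 12 libraries, so the groups are not independent and the 2 rates cannot be compared as a test. KO replicate 6 accounted for 5 of the 9 groups. Its Efna1 value was 1.31 FPKM, where the other KO libraries held 2.41 to 2.78 FPKM. Its Sema3c value was 14.7 FPKM, against 22.4 to 25.8 FPKM in the others. It was highest in Unc5b at 44.4 FPKM (others 29.4 to 34.6 FPKM), in Sema4b at 6.64 FPKM (others 4.72 to 5.35 FPKM) and in Plxna1 at 49.8 FPKM (others 31.9 to 38.1 FPKM). KO replicate 5 was lowest in Ephb3 at 4.13 FPKM (others 5.19 to 5.69 FPKM) and in Ephb4 at 8.64 FPKM (others 12.8 to 14 FPKM). In WT, Sema3c was at 9.66 FPKM in replicate 4 (others 8.89 to 9.16 FPKM), and Robo1 was listed at 0 in replicate 2, where the others held 0.01 FPKM, the smallest step of the table.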

How the results depend on the processing

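Of the 24 called guidance genes, 22 kept their call and direction in each of the 23 alternatives in which they were tested. The other 2, Plxna1 and Ephb4, are given with their values above. The 22 include Efna2, Sema3e, Sema6b, Nrp2 and Slit3, which passed the filter only through KO and so had to be higher. Without these 5, 19 were called, Plxna1 and Ephb4 among them. Of the 7 that did not pass, Epha2, Sema4b and Sema6d passed in some alternative, among them weights per library (adjusted p = 5.7e-06, 0.0001 and 1.4e-08) and, for Sema6d, quantile normalization (0.049). The number of guidance genes that rose was 10 and that of those that fell 14. With no filter 24 rose and 17 fell. With a minimum of 5 FPKM 4 rose and 9 fell, and 4775 of all genes were called in place of 7515, because fewer genes were tested. Leaving out each library in turn gave 10 to 11 that rose and 14 to 15 that fell. With KO replicates 1 to 4 only 11 rose and 16 fell. With the replicate block 10 rose and 14 fell. Nothing in the labels pairs libraries of the same number. The correlations of same-numbered deviations were -0.27 to -0.06, which shows no pairing but cannot exclude a shared batch. Rescaling moved the median difference of all genes by at most 0.05 (log2). Depth is unknown, so values near 0 FPKM carry no limit of detection.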
